A study of Mus musculus with 12 samples.

Results

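The genes described here are named for enzymes that add or remove methyl groups, or remove acetyl groups, on histones, although some of them act on other proteins. They were chosen by symbol alone, as the protein-coding genes of the RefSeq annotation of GRCm38/mm10 whose symbols begin with Kdm, Kmt, Setd, Hdac or Sirt followed by a digit. This gave 52 of 21887 protein-coding genes on chromosomes 1 to 19, X and Y. Mediator regions were tied to them by position. Peaks of the 4 libraries of a protein were merged where they overlapped by at least 1 bp, and a region belonged to a gene when that gene's span was the nearest one within 100 kb. MED1 had 194 regions at 51 of the 52 genes, of 65291 regions in all, and MED24 had 197 regions at 50 of them, of 66123.

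Histone methylation is written by methyltransferases and erased by demethylases, so a mark at a promoter or enhancer reflects the balance of both. Most of the Kmt2 and Setd1 enzymes methylate lysine 4 of histone H3, a mark of active promoters and enhancers. Kmt5 enzymes methylate histone H4, and the Kdm enzymes remove methyl groups with either a flavin or an iron and oxoglutarate cofactor. Histone deacetylases of the zinc-dependent Hdac classes and the NAD-dependent sirtuins remove acetyl groups from histones and from many other proteins, and class I deacetylases act largely within corepressor complexes.

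Mediator, the complex that bridges enhancer-bound factors and RNA polymerase II, was mapped by ChIP-seq through its subunits MED1 and MED24, the second by a FLAG antibody. All cells were E14tg2a mouse embryonic stem cells of 129SV background with a stably integrated cRAF-ErT2 cassette, in which 4-hydroxytamoxifen (4OHT) activates RAF and then ERK. They had been grown with serum, LIF and 2 µM Chir99021, a GSK3 inhibitor, and then spent 24 h with 250 nM PD173074, an FGF receptor inhibitor. The 2 h group then received 250 nM 4OHT for 2 h, and the 0 h group did not, with clones a and b in each group for each protein. Neither cells free of the cassette nor cells given vehicle were analysed here. The effects of 4OHT itself, of the time elapsed and of ERK activation therefore cannot be told apart. The 4 inputs are not analysed here. Each group has 2 libraries, so an exact two-sided permutation test over libraries cannot give a p below 0.333.

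The 4 libraries at 2 h held between 42445 and 48931 peaks and the 4 at 0 h between 37483 and 41689. Depth is unknown, because peak lists hold no read numbers. Regions were counted at marker genes of stem cells and of fibroblasts. All 8 embryonic stem cell markers (Pou5f1, Sox2, Nanog and others) had regions in both proteins. Of 10 fibroblast markers 7 had a MED1 region and 6 a MED24 region, and Dcn, Lum and Postn had none. Of all 21887 protein-coding genes, 15918 had a MED1 region and 16105 a MED24 region. Having a region is therefore common, and these counts say little of cell identity. The summed number of regions called at the stem cell markers was 61 and 65 at 2 h, against 76 and 80 at 0 h, in MED1, and 69 and 78 at 2 h, against 76 and 75 at 0 h, in MED24. The markers did not all move alike. In MED1 Nanog had 5 and 6 regions at 2 h, against 12 and 13 at 0 h. Sox2 had 14 and 13 at 2 h, against 11 and 12 at 0 h, and Pou5f1 had 4 and 5, against 4 and 2. At the fibroblast markers the sums were 9 and 10 at 2 h, against 4 and 6 at 0 h, in MED1, and 11 and 11 at 2 h, against 7 and 7 at 0 h, in MED24. The part of these differences in the results below was not tested.

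Transcription start sites of 41 of the 52 genes, 57 sites in all, were found in a RefSeq promoter table of GRCm38.p6. A region was called retained when all 4 libraries of a protein held a peak in it, gained when both 2 h libraries and neither 0 h library did, and lost in the reverse case. Of the 57 sites, 39 sites of 30 genes lay in regions retained in both proteins, against 8398 of all 21263 start sites of protein-coding genes. Another 10 sites, at 8 genes, lay in no region of either protein, against 9635 of all sites. Retained regions held 73.7% of the 57 sites in MED1 and 70.2% in MED24, against 44.1% and 41.4% of all sites. This difference was not tested. The promoters of both kinds differed in base composition. The median number of CpG dinucleotides in the 300 bases from 250 before to 50 after the start was 24, with a range of 0 to 65, at the sites retained in both proteins and 5.5, with a range of 0 to 40, at those in no region. Over all 21263 start sites of protein-coding genes the medians were 24 and 3, so the occupied and unoccupied promoters of these enzymes had CpG numbers near those of other genes in the same state.

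The sequences below show this contrast in 6 windows, chosen after their values were seen, from the RefSeq table of GRCm38.p6. Every CG pair is in capitals. The first is the retained start of Kmt2a (chr9:44881240-44881539, minus strand), with 36 CpG, whose gene gained Mediator upstream. The second is the retained start of Kdm7a (chr6:39206724-39207023, minus strand), with 65, where MED24 ranked higher at 2 h. The third is the retained start of Hdac4 (chr1:92180292-92180591, minus strand), with 32, a gene with a gained region inside its span. The next pair belongs to Kdm4c, both on the plus strand. Its upper start, here the upstream one at the lower coordinate (chr4:74242247-74242546), has 0 CpG and no Mediator region. Its inner start, within the gene (chr4:74251629-74251928), has 28 and is retained in both proteins. The last is a start of Hdac9 (chr12:34528840-34529139, minus strand), with 3 CpG and no region.
Kmt2a: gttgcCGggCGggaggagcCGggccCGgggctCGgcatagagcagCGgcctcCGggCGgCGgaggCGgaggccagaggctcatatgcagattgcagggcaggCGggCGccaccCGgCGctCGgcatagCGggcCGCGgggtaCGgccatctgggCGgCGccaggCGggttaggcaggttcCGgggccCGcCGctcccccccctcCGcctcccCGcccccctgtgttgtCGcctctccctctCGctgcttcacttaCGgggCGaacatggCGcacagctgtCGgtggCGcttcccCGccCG
Kdm7a: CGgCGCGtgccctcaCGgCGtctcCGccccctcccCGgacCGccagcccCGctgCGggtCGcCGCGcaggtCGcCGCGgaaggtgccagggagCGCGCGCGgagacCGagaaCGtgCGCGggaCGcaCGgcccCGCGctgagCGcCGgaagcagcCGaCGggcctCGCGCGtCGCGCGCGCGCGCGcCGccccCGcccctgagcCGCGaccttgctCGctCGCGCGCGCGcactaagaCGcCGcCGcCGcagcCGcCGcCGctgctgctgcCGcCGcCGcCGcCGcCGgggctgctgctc
Hdac4: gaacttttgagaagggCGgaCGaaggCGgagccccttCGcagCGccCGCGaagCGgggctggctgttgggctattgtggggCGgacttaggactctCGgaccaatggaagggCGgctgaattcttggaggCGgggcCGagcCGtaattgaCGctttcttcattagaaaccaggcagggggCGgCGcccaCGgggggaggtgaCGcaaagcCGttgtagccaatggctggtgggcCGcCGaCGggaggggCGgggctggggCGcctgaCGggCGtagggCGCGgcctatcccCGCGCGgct
Kdm4c upper start: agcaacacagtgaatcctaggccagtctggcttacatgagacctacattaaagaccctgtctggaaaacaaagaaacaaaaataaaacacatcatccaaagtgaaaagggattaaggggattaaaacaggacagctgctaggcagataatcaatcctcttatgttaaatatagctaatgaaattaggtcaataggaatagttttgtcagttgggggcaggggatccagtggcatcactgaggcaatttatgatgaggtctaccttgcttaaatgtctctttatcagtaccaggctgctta
Kdm4c inner start: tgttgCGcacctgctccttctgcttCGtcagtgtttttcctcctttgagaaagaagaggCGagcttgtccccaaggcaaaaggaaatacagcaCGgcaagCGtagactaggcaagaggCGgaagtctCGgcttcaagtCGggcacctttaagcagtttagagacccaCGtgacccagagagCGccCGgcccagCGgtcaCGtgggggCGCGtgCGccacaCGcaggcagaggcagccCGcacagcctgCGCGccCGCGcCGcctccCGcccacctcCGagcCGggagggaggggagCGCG
Hdac9: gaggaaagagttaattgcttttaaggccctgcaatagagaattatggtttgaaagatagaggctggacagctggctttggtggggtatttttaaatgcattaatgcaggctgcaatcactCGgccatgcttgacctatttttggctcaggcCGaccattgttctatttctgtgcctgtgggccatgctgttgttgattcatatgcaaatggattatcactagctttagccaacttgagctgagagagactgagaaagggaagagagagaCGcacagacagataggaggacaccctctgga

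Short motifs were searched on both strands of the same windows. The ETS-type word CCGGAAG was present in 8 of the 57 windows, or 14.0%, against 11.6% of all windows. The AP-1-type word TGANTCA was present in 6, or 10.5%, against 6.99% of all windows. These matches are letters in a window and say nothing of binding.

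Regions of the 52 genes that held a start site of the promoter table were mostly retained. MED1 had 36 such regions, of which 34 were retained and 0 were gained or lost. MED24 had 35, of which 32 were retained and 0 were gained or lost. Gains and losses of such regions were also rare over all protein-coding genes, with 82.2% retained, 2.35% gained and 1.13% lost in MED1 and 77.0% retained, 4.89% gained and 0.80% lost in MED24, so the 0 is near the background. Regions that held no start site of the table had 25 gained (15.8%) and 9 lost (5.70%) of 158 in MED1, against 19.7% and 7.502% over all genes, and 27 gained (16.7%) and 17 lost (10.5%) of 162 in MED24, against 17.8% and 9.65%. For the 11 genes that the table lacks, their own start could not be placed. Of the gains, 15 of 25 in MED1 (60.0%) and 18 of 27 in MED24 (66.7%) lay inside a gene span, against 56.5% and 58.1% over all genes. Within 20 kb of a span lay 23 (92.0%) and 24 (88.9%), against 80.8% and 81.9%. Whether a region lies in an exon or an intron was not determined, since the gene table gives spans only.

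**Figure D1:**
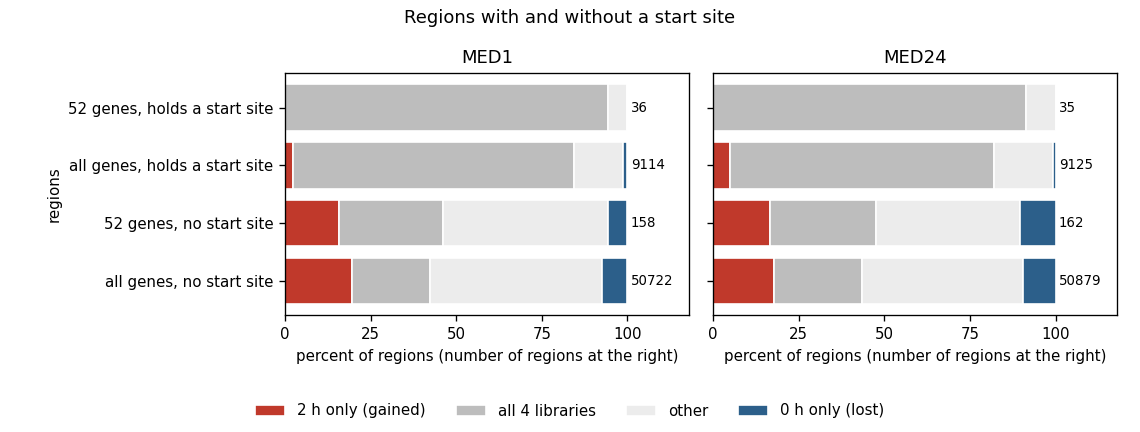
Percent of regions that were gained, retained, in another state or lost, for regions with and without a start site, at the 52 genes and at all protein-coding genes, with the number of regions at the right. Start-site regions of the 52 genes show no gained and no lost part in either protein, and 34 of 36 (MED1) and 32 of 35 (MED24) were retained.

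Taken as a group, the 52 genes held slightly more regions at 2 h. MED1 called 130 and 136 of the 194 regions at 2 h in clones a and b, against 123 and 121 at 0 h. The means were 133 ± 4.24 at 2 h and 122 ± 1.41 at 0 h (SD, n = 2 each), higher at 2 h in both clones (exact permutation p = 0.333). MED24 called 129 and 144 of 197 regions at 2 h, against 134 and 121 at 0 h. Here the groups overlapped, with clone a lower by 5 regions and clone b higher by 23 at 2 h (exact permutation p = 0.667).

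Relative to the whole of each list, however, the 52 genes held a smaller part at 2 h. In MED1 they took 0.315% and 0.303% of called regions at 2 h, against 0.340% and 0.346% at 0 h. In MED24 they took 0.319% and 0.305% at 2 h, against 0.336% and 0.332% at 0 h. The groups did not overlap in either protein, and the difference had the smallest p this test over libraries allows (exact permutation p = 0.333 in each). The MED24 groups overlapped when only regions inside gene spans, or only the 10000 highest ranked peaks per library, were counted. The number of regions called, in contrast, was not higher at 2 h when each library was cut to its 10000 highest ranked peaks, where the difference between the mean numbers was -4.5 in MED1 and -1 in MED24.

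In MED1, 25 regions (12.9%) of the 52 genes were gained, against 17.0% of the regions of all protein-coding genes, and 9 (4.64%) were lost, against 6.53%. In MED24, 27 (13.7%) were gained, against 15.8%, and 17 (8.63%) were lost, against 8.30%. Retention was the more frequent state here, with 82 MED1 regions (42.3%) against 31.9% over all genes, and 82 MED24 regions (41.6%) against 33.4%. The net change, gained minus lost as a percent of regions, was 8.25% at the 52 genes against 10.5% over all genes in MED1 and 5.08% against 7.52% in MED24. These are descriptions, since no test was made over the list, and leaving out clone b at 0 h turned the MED1 net change to -0.543% and the MED24 one to -1.54%. Without clone b at 0 h the net change of all genes was lower as well, at 4.55% in MED1 and 1.81% in MED24.

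Among the retained regions, ranks were compared within each library. In MED1, 23 of 82 (28.0%) ranked higher at 2 h in both clones, against 29.7% of all retained regions, and 35 (42.7%) ranked lower, against 36.2%. In MED24, 25 of 82 (30.5%) ranked higher in both clones, against 36.5%, and 36 (43.9%) ranked lower, against 35.4%. The mean percentile of the 82 MED1 regions was 50.6 and 50.4 at 2 h, against 50.6 and 51.5 at 0 h (exact permutation p = 0.667). For the 82 MED24 regions it was 51.98 and 53.9 at 2 h, against 53.9 and 55.7 at 0 h (exact permutation p = 0.333).

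Counted by gene, 15 of 51 genes with a MED1 region (29.4%) had more gained than lost regions, against 31.9% of all such genes, and 8 (15.7%) had more lost than gained, against 10.7%. In MED24, 15 of 50 genes (30.0%) had more gained, against 29.3%, and 8 (16.0%) more lost, against 13.6%. Both proteins gave more gained regions at 11 of the 50 genes with regions in both (22.0%, against 22.6% of all such genes): Hdac4, Hdac5, Hdac6, Hdac7, Hdac8, Kdm1a, Kdm5b, Kmt2a, Setd2, Setd5 and Sirt2. Both gave more lost regions at 5 (10.0%, against 5.82%), all of them demethylase genes: Kdm1b, Kdm2b, Kdm3b, Kdm7a and Kdm8. Kdm2a and Kmt5c had opposite signs in the 2 proteins.

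**Figure D2:**
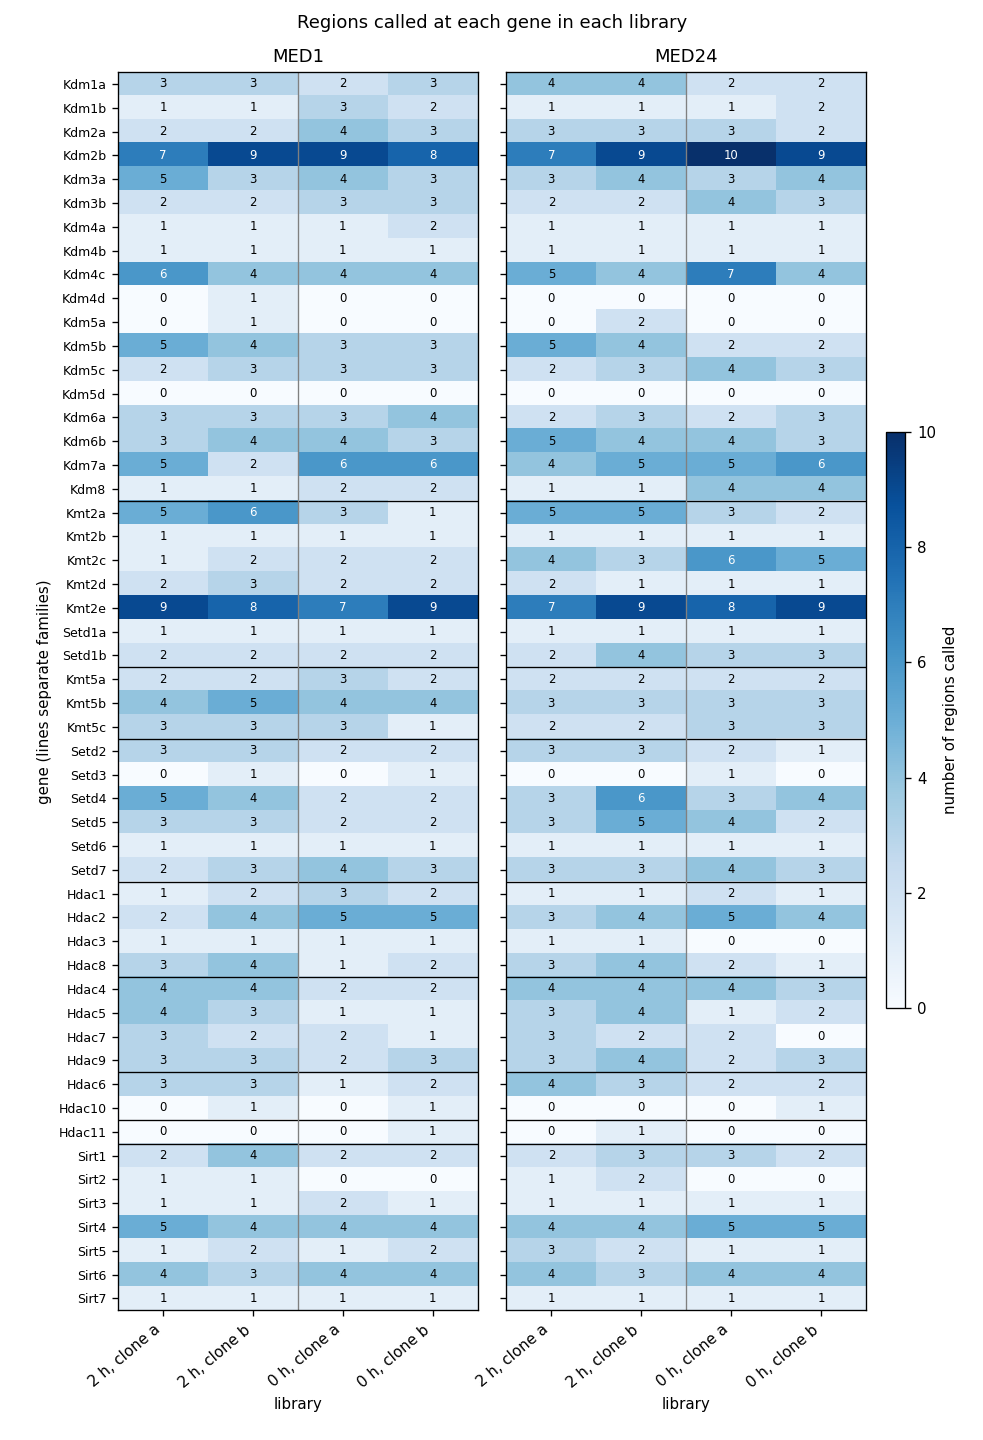
Number of regions called at each of the 52 genes (rows, by family) in each library (columns), for MED1 and MED24. Kdm2b and Kmt2e hold the most regions, Hdac5, Hdac6 and Kmt2a hold more at 2 h than at 0 h in both proteins, and Kdm8 holds fewer.

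The deacetylase and demethylase genes stood on different sides in the counts. The 11 Hdac genes had 8 gained (22.2%) and 2 lost (5.56%) of 36 regions in MED1, against 17.0% and 6.53% over all genes, and 10 gained (25.6%) and 1 lost (2.56%) of 39 in MED24, against 15.8% and 8.30%. Their libraries did not overlap, with 24 and 27 MED1 regions called at 2 h, against 18 and 21 at 0 h, and 25 and 28 MED24 regions at 2 h, against 20 and 17 at 0 h (exact permutation p = 0.333 in each). The regions of all genes did not overlap between the groups either, with 38181 and 41286 MED1 regions called at 2 h, against 33500 and 32406 at 0 h, and 37267 and 43305 MED24 regions at 2 h, against 36205 and 33186 at 0 h. The Kdm genes had 6 gained (7.59%) and 7 lost (8.86%) of 79 regions in MED1 and 8 gained (10.7%) and 10 lost (13.3%) of 75 in MED24. Their MED1 libraries held 47 and 45 regions at 2 h, against 52 and 50 at 0 h, and their MED24 libraries 46 and 51 at 2 h, against 53 and 49 at 0 h. The Hdac net change was above 0 under each alternative tried, with a range of 8.33% to 37.5% for MED1 and of 15.8% to 31.6% for MED24. That of all genes was likewise above 0 under each alternative for which it was computed, with 4.55% to 19.9% for MED1 and 1.81% to 18.1% for MED24. It was not computed with the clones as a replicate block. The Kdm genes had a net change of -1.27% (MED1) and -2.67% (MED24), which turned above 0 under some alternatives, so its direction depended on the setting. The difference between the families was not tested.

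**Figure D3:**
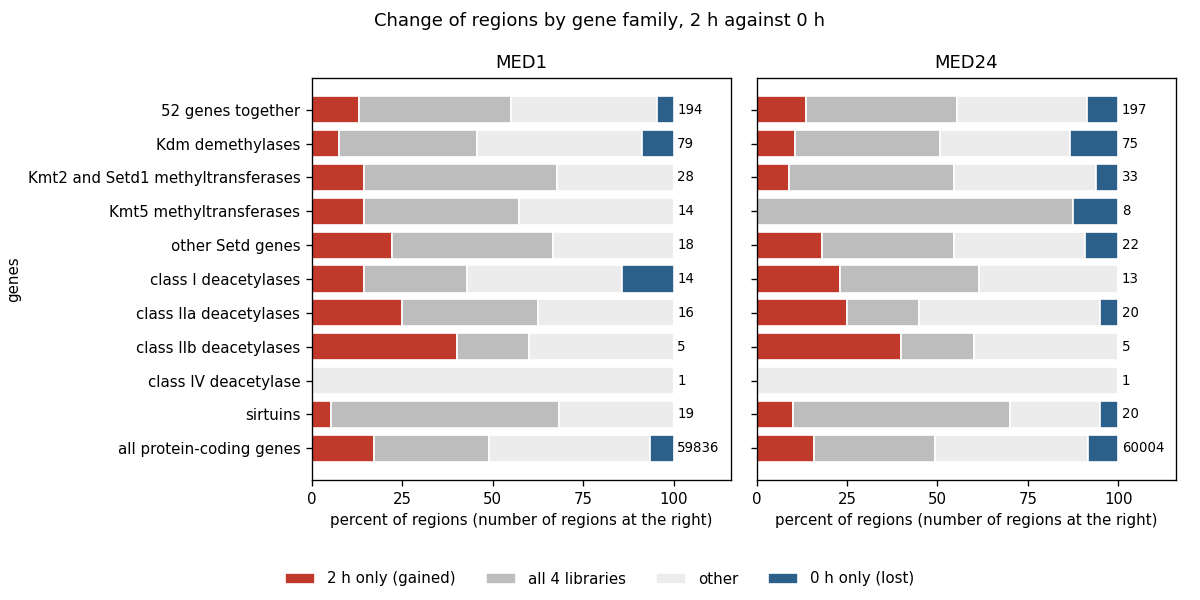
Percent of regions gained, retained, in another state or lost in each enzyme family and over all protein-coding genes, with the number of regions at the right of each bar. The gained part is 4 of 16 MED1 regions and 5 of 20 MED24 regions in class IIa deacetylases, and the lost part exceeds the gained part at the Kdm genes in both proteins.

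Class IIa deacetylases shuttle between nucleus and cytoplasm and act as signal-responsive corepressors of MEF2 and other factors. By the mean percentile of both clones, Hdac5 held the highest ranked gained region of the 52 genes in both proteins. This region lies inside the gene span (chr11:102200963-102202166 in MED1) and stood at percentiles 98.6 and 99.3 of the regions called in the MED1 2 h libraries of clones a and b, with deposited fold enrichments of 21.6 and 36.5, and at 98.8 and 99.0 in MED24. No 0 h library of either protein held a peak there. A further gained region lay 7.92 kb (MED1) and 8.01 kb (MED24) outside the span. The start-site region of Hdac5 was retained in both proteins, at percentiles 14.6 and 54.6 of the retained MED1 regions at 2 h, against 39.1 and 20.1 at 0 h.

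Hdac4 had a gained region of similar rank inside its span (chr1:92064206-92064863). It stood at percentiles 99.0 and 98.7 in the MED1 libraries at 2 h and at 97.3 and 98.4 in the MED24 libraries, with no peak at 0 h. A second region inside Hdac4 (chr1:92119288-92119890) was retained and moved up. Its percentile among retained MED1 regions was 94.6 and 94.5 at 2 h, against 55.2 and 55.2 at 0 h, and among retained MED24 regions it was 96.2 and 97.6 at 2 h, against 61.3 and 77.1 at 0 h. The start-site region of Hdac4 moved the other way, to 76.0 and 80.9 in MED1 at 2 h, against 87.9 and 90.9 at 0 h. Hdac7 had 1 gained region inside its span in each protein, at percentiles 59.9 and 43.5 in MED1 and 8.49 and 65.5 in MED24. Hdac9, the longest of these genes at 869.5 kb, had none gained and none lost in MED1 and 1 of each in MED24.

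Hdac8, a class I enzyme that deacetylates the cohesin subunit SMC3, had a retained region inside the gene (chrX:102304596-102305938) with one of the largest shifts of rank in either protein. Its percentile among retained MED1 regions was 94.8 and 94.9 at 2 h, against 20.4 and 20.1 at 0 h. Among retained MED24 regions it was 93.8 and 93.9 at 2 h, against 38.7 and 42.5 at 0 h. Its 2 h and 0 h libraries were thus far apart in both clones, and 2 further regions inside the gene were gained in each protein. Hdac6, a mainly cytoplasmic class IIb enzyme that deacetylates tubulin, also gained 2 regions inside its span in each protein. They stood at percentiles between 40.01 and 71.6 of the MED1 2 h libraries and between 32.4 and 62.3 of the MED24 2 h libraries.

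The other class I genes, Hdac1, Hdac2 and Hdac3, encode the catalytic subunits of the NuRD, SIN3, CoREST and other corepressor complexes. Hdac1 lost 1 MED1 region inside its span, which had stood at percentiles 45.2 and 19.1 at 0 h. Hdac2 lost 1 MED1 region 26.8 kb away, at percentiles 32.5 and 41.5 at 0 h. A MED24 region 37.7 kb from Hdac2 (chr10:36935772-36936548) was retained with a lower rank, at percentiles 19.8 and 14.8 of retained regions at 2 h, against 90.1 and 82.2 at 0 h. The start-site region of Hdac2 itself ranked lower by less, at 83.7 and 83.7 in MED24 at 2 h, against 86.8 and 86.4 at 0 h, and at 69.3 and 74.2 in MED1 at 2 h, against 84.3 and 77.5 at 0 h. Hdac3 gained 1 MED24 region inside its span. At Hdac10 (class IIb) and Hdac11 (class IV) no region was called in more than 1 library of a group.

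**Figure D4:**
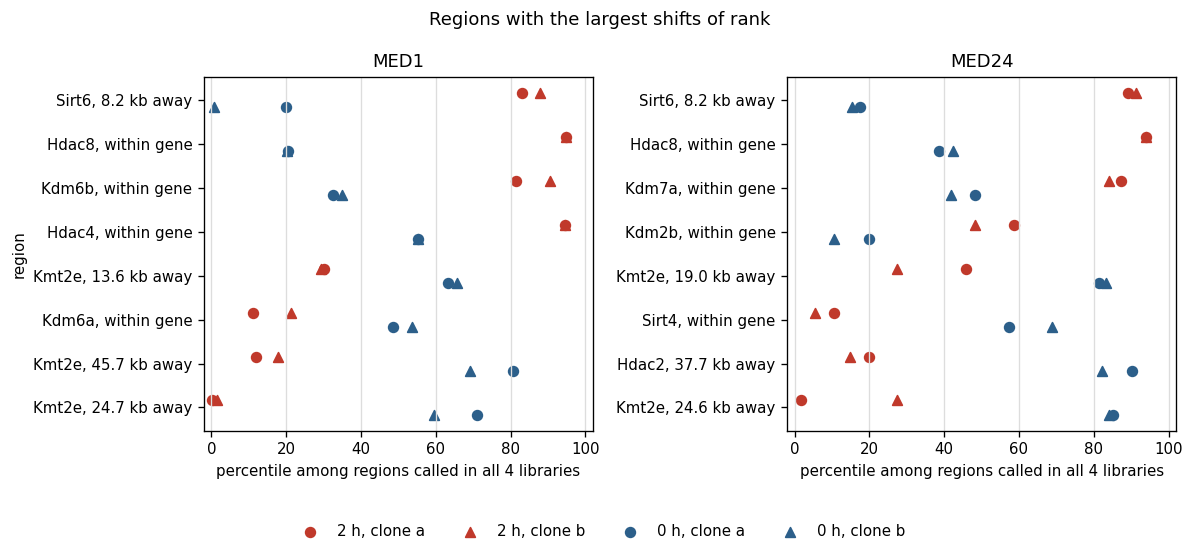
Percentile of the regions of the 52 genes with the largest shifts, among regions called in all 4 libraries of the protein, at 2 h (red) and 0 h (blue), with circles for clone a and triangles for clone b. Regions of Sirt6 and Hdac8 lie to the right at 2 h in both proteins, and regions of Kmt2e lie to the left.

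Among the demethylase genes, losses were led by Kdm8, which encodes a JmjC-domain protein. A region 25.6 kb upstream of its start (chr7:125418308-125419022) was lost in both proteins. At 0 h it stood at percentiles 70.8 and 84.5 of the regions called for MED1 and at 92.7 and 94.3 for MED24, and no 2 h library held a peak there. MED24 lost 2 more regions on either side of it, 27.8 kb and 24.0 kb from the gene, which left Kdm8 with 1 MED24 region in each 2 h library, against 4 in each 0 h library. The region left was its start site, at percentiles 53.2 and 65.9 of retained MED24 regions at 2 h, against 73.4 and 74.1 at 0 h.

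Kdm2b, which recruits a variant Polycomb complex to CpG islands, held 10 or fewer regions per library and changed in several ways. A region inside its span (chr5:122890360-122890816) was lost in both proteins, at 0 h percentiles of 66.3 and 55.4 in MED1 and 80.3 and 81.7 in MED24. Its inner start-site region (chr5:122899907-122900846) ranked higher in MED24, at percentiles 58.6 and 48.4 of retained regions at 2 h, against 19.8 and 10.6 at 0 h. MED1 did not move one way there, with 74.7 and 19.5 at 2 h, against 57.1 and 54.6 at 0 h. A region 5.16 kb beyond the gene also ranked higher, at 79.3 and 68.9 in MED1 at 2 h, against 9.22 and 30.8 at 0 h, and at 81.5 and 89.4 in MED24 at 2 h, against 50.02 and 38.0 at 0 h. Other retained MED1 regions of Kdm2b ranked lower. One inside the span (chr5:122925060-122925791) stood at 0.739 and 8.195 at 2 h, against 21.2 and 52.1 at 0 h, the outer start-site region at 12.2 and 11.8 at 2 h, against 28.0 and 21.9 at 0 h, and a region 1.97 kb beyond the gene at 24.4 and 66.9 at 2 h, against 57.4 and 75.4 at 0 h. Regions of higher and lower rank thus lay side by side at Kdm2b.

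Kdm7a, whose product removes repressive methylation from lysines 9 and 27 of histone H3, lost 1 region in each protein, at different positions, while its start-site region (chr6:39205090-39207652 in MED24) ranked higher. That region stood at percentiles 87.2 and 84.2 of retained MED24 regions at 2 h, against 48.2 and 41.9 at 0 h, and at 86.8 and 86.1 of retained MED1 regions at 2 h, against 77.3 and 67.1 at 0 h. Kdm1b, a flavin-dependent demethylase of lysine 4 of histone H3, lost 1 region inside its span in both proteins, at 0 h percentiles of 31.6 and 37.2 in MED1 and 59.9 and 41.1 in MED24. Kdm3b, which acts on lysine 9 of histone H3, lost 1 region in each protein, but not the same one.

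Some demethylase genes gained regions. Kdm1a encodes LSD1, which erases methylation from lysine 4 of histone H3 within CoREST and NuRD. It gained the same 2 regions in both proteins, and the stronger gain stood at percentiles 90.1 and 87.8 in MED1 and 67.9 and 71.1 in MED24 at 2 h. Kdm1a also lost 1 region in MED1, at 0 h percentiles of 41.9 and 42.9, which overlapped a retained MED24 region. Kdm5b, a lysine 4 demethylase of promoters, gained 2 regions inside its span in both proteins, and the one at chr1:134606634-134607165 stood at 85.8 and 81.9 in MED1 and 39.2 and 39.3 in MED24. A MED24 region inside Kdm5b (chr1:134589711-134590069) was lost, at 0 h percentiles of 49.96 and 51.1. Kdm4c, which acts on lysine 9 and lysine 36 of histone H3, gained 2 regions in MED1 and 1 in MED24 and lost 1 in MED24.

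Kdm6a and Kdm6b, the demethylases of lysine 27 of histone H3, had regions that moved in opposite directions. A region inside Kdm6b (chr11:69408734-69412147) stood at percentiles 81.4 and 90.5 of retained MED1 regions at 2 h, against 32.5 and 35.0 at 0 h, and at 91.0 and 93.1 of retained MED24 regions at 2 h, against 28.5 and 56.7 at 0 h. A region inside Kdm6a (chrX:18180559-18180950) stood at 11.0 and 21.3 in MED1 at 2 h, against 48.6 and 53.7 at 0 h, and at 7.08 and 34.2 in MED24 at 2 h, against 46.8 and 47.1 at 0 h. Kdm2a, a CpG-island-binding demethylase of lysine 36, lost a MED1 region inside its span and gained a MED24 region 10.5 kb outside it. Kdm5d had no region in either protein, and Kdm4d had only 1 MED1 region, called in 1 library at 2 h, although its start site lay in a retained region that was nearest to, or shared with, another gene.

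Among the methyltransferase genes Kmt2a, which encodes MLL1, had the largest surplus of gains of all 52 genes, with 5 gained and none lost over the 2 proteins. MED1 gained regions 4.01 kb, 9.84 kb and 11.1 kb upstream of the gene, and the outer pair (chr9:44891189-44891737 and chr9:44892489-44893133) stood at percentiles 88.9 and 94.9 and at 88.3 and 93.6 of the 2 h libraries. MED24 gained the regions at 4.18 kb and 11.2 kb, the farther one at percentiles 89.5 and 95.1. The middle region was called in MED24 in both 2 h libraries and in 1 of the 0 h libraries. The start-site region of Kmt2a also ranked higher at 2 h, at 84.2 and 91.1 of retained MED1 regions, against 80.9 and 85.3 at 0 h, and at 94.7 and 93.8 of retained MED24 regions, against 76.9 and 80.8 at 0 h.

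Kmt2e, whose protein carries a PHD finger that binds methylated lysine 4, had a run of regions below its span that moved down together. The region 24.7 kb away (chr5:23407673-23408330) stood at percentiles 0.218 and 1.58 of retained MED1 regions at 2 h, against 71.1 and 59.5 at 0 h, and at 1.57 and 27.3 of retained MED24 regions at 2 h, against 85.2 and 84.2 at 0 h. The region 45.7 kb away (chr5:23386610-23387358) stood at 11.8 and 17.7 in MED1 at 2 h, against 80.7 and 69.0 at 0 h. The one 13.6 kb away (chr5:23418136-23419452) stood at 30.1 and 29.3 in MED1 at 2 h, against 63.3 and 65.6 at 0 h. In MED24 the region 19.02 kb away (chr5:23412909-23414015) stood at 45.8 and 27.3 at 2 h, against 81.5 and 83.3 at 0 h. Between them a region 30.7 kb away kept its place in MED1, at 89.3 and 71.3 at 2 h, against 85.4 and 72.4 at 0 h. The region over the lower end of the span stayed among the highest, at 95.5 and 94.7 in MED1 at 2 h, against 97.6 and 95.4 at 0 h. One region 9.57 kb away was gained in both proteins, and one 17.9 kb away (chr5:23414464-23415093) was lost in MED24.

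**Figure D5:**
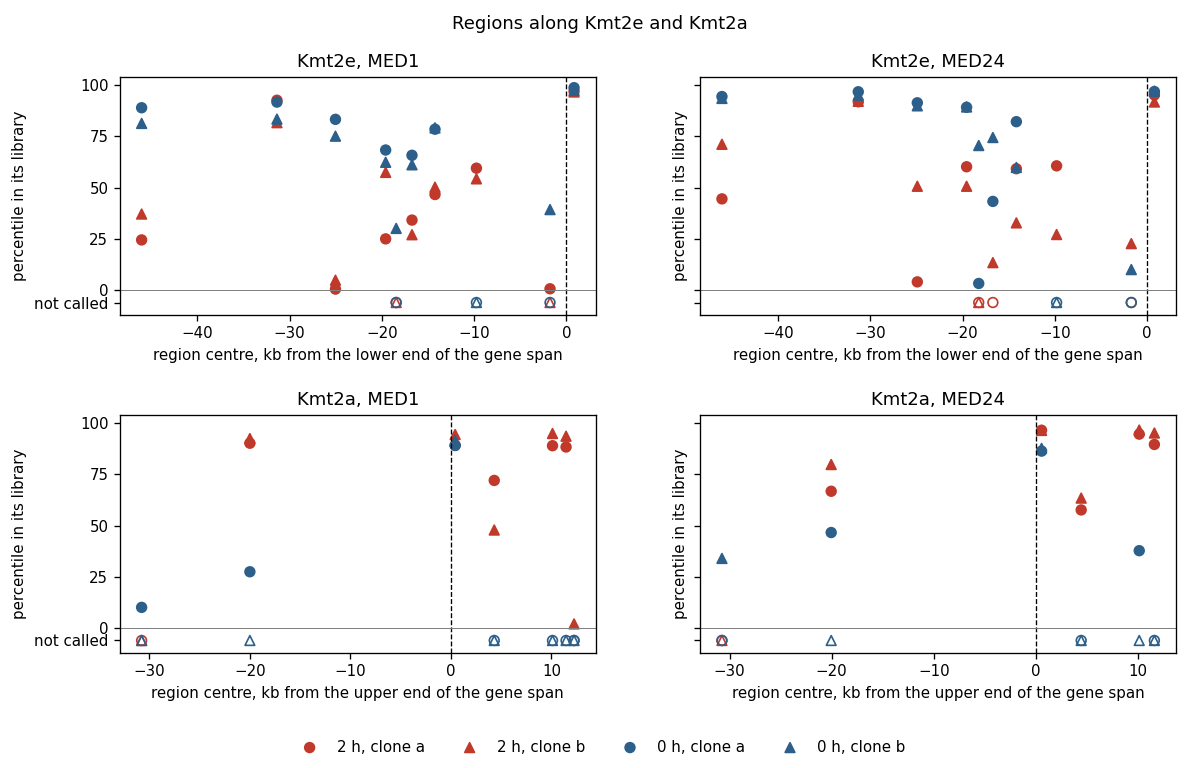
Percentile of each region among the regions called in its library, against the distance of its centre from the lower end of Kmt2e or the upper end of Kmt2a in kb, at 2 h (red) and 0 h (blue), with circles for clone a, triangles for clone b and open symbols for no call. Lists differ in length, so small differences of percentile between libraries are not comparable. Several regions below Kmt2e lie lower at 2 h, and the regions above Kmt2a appear at 2 h.

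The remaining methyltransferase genes showed smaller counts. Setd2, which trimethylates lysine 36 of histone H3, gained 1 region inside its span in both proteins, and Setd5 gained 1 region 2.60 kb (MED1) and 2.66 kb (MED24) outside its span in both. Setd4 gained 2 regions about 90 kb from its span in each protein, the farther at percentiles 60.2 and 71.6 in MED1 and 63.2 and 83.0 in MED24 at 2 h, and lost 2 MED24 regions 83.4 kb and 49.8 kb away. Kmt2c, an enhancer lysine 4 methyltransferase, lost 1 MED24 region 5.10 kb outside its span. Kmt5c, which trimethylates lysine 20 of histone H4, gained 2 MED1 regions outside its span and lost 1 MED24 region inside it. The gain 0.34 kb from the span stood at percentiles 1.09 and 39.1 at 2 h and overlapped a retained MED24 region. The gain 6.93 kb away overlapped no MED24 region.

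Sirtuins had 1 gained (5.26%) and 0 lost of 19 MED1 regions, against 17.0% and 6.53% over all genes, and 2 gained (10.0%) and 1 lost (5%) of 20 MED24 regions, against 15.8% and 8.30%. They held 2 of the largest shifts of rank. A region 8.21 kb from Sirt6, a chromatin-bound deacetylase of histone H3, was retained (chr10:81612580-81613576). It stood at percentiles 83.1 and 87.9 of retained MED1 regions at 2 h, against 19.8 and 0.588 at 0 h, and at 89.1 and 91.3 of retained MED24 regions at 2 h, against 17.5 and 15.4 at 0 h. A region inside Sirt4, a mitochondrial sirtuin, moved down in MED24 (chr5:115479380-115480492), to 10.6 and 5.56 at 2 h, against 57.3 and 68.7 at 0 h, and in MED1, to 8.64 and 29.1 at 2 h, against 55.3 and 40.4 at 0 h. Another region over the upper end of Sirt4 stayed at or above percentile 99.78 of retained regions in all 8 libraries. Sirt2, a mainly cytoplasmic tubulin deacetylase, gained 1 region inside its span in both proteins.

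MED1 and MED24 could be set against each other at the same positions, since both were mapped in cells of the same clones. Of the 25 MED1 gains at the 52 genes, 21 (84.0%) were also MED24 gains, against 61.8% over all genes, and of the 27 MED24 gains 21 (77.8%) were also MED1 gains, against 66.5%. Losses were shared less fully, with 3 of 9 MED1 losses (33.3%, against 43.2% over all genes) and 3 of 17 MED24 losses (17.6%, against 33.8%). No region of the 52 genes was gained in one protein and lost in the other. Such opposite changes were rare over all genes too, so this 0 is near the background. They made up 5 of 10185 MED1 gains and 11 of 3908 MED1 losses, and 11 of 9495 MED24 gains and 5 of 4983 MED24 losses. The difference in sharing between gains and losses was not tested.

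Genes of related enzymes and partner complexes were counted in the same way, from lists drawn up by name, to be read against the 17.0% gained and 6.53% lost of all MED1 regions and the 15.8% and 8.30% of all MED24 regions. Other methyltransferases had 9 gained and 7 lost of 83 MED1 regions and 14 gained and 5 lost of 83 MED24 regions. Dot1l, which methylates lysine 79 of histone H3, had 5 gains and no loss over both proteins. Acetyltransferases, the enzymes opposed to the deacetylases, had 10 gained and 8 lost of 87 MED1 regions and 10 gained and 9 lost of 84 MED24 regions, and Kat6b had 3 lost MED1 and 4 lost MED24 regions, against 1 gained. Subunits of deacetylase complexes had 19 gained and 11 lost of 151 MED1 regions and 20 gained and 15 lost of 143 MED24 regions. Within that list Mbd2, of NuRD, gained 5 MED1 and 4 MED24 regions and lost 1 in MED1. Partners of the lysine 4 methyltransferases had 5 gained and 7 lost of 62 MED1 regions and 5 gained and 5 lost of 62 MED24 regions, and other demethylases 4 gained and 1 lost of 24 and 2 gained and 2 lost of 18.

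The distance limit decided few regions. The farthest region inside it was a gained one 90.7 kb (MED1) and 90.8 kb (MED24) from Setd4. A further 8 regions in each protein were nearest to one of the 52 genes at 100 to 200 kb, of which the nearest was a gained region 104.1 kb from Setd4 in MED1 and a retained one 100.5 kb from Kdm4c in MED24. Of the 194 MED1 and 197 MED24 regions of the 52 genes, 8 and 6 were tied with another gene, so that they could belong to either. Other tied regions were assigned to the other gene. With all ties given to the 52 genes, they had 201 MED1 and 206 MED24 regions.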

How the data were processed

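ChIP-seq peak lists of 8 libraries were used, 4 per protein, grouped by the labels. The submitters' processing notes name Bowtie2, MACS2, bedtools and the mm10 build, and no versions or settings. The authors deposited peaks per library, not on pooled samples. In the MED1 lists the deposited values for each peak are a fold enrichment (a ratio), a score, a −log10 p-value and a −log10 q-value. The score there equalled 10 times −log10 q without its decimals in 100% of peaks. The MED24 lists hold a deposited score only, and their peak names carry a folder name of EP300, while the labels say MED24. All these values are the authors' own and served only for ranks and filters inside 1 list, MED1 by −log10 p and MED24 by score. The lowest score was 20 in each list. No read numbers are given, so the depth of each sample is unknown, and precision is limited by 2 libraries per group.

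Peaks were merged and assigned to gene spans with Python 3.11.15, numpy 2.4.6 and pandas 2.3.3, and the steps were checked on simulated peaks. Percentiles are ranks within a library, among all regions called there (gained and lost regions) or among retained regions. Exact two-sided permutation tests compared library values, with a threshold of 0.05 that 2 against 2 libraries cannot reach. They did not use the pairing of samples by clone. Nothing says that the clones were cultured or precipitated independently beyond their names, so the p-values measure only the spread between these libraries. Named genes were the 8 with the largest and the 8 with the smallest gained minus lost count over both proteins, the 5 with the most regions and those without a region in a protein. Named regions were, per protein, the 4 best ranked gained, the 4 best ranked lost and the 4 retained with the largest shift each way, and of each other list up to 3 genes. Others are named to complete the account. One gene that this rule names is not reported here. Clone letters pair the samples, since the labels give the same clone at both times. Members, lists and rules were chosen with earlier results of these data known. No genome was used here, so sequences of regions away from start sites are not printed.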

Additional observations from a re-analysis of the deposited data

How the results depend on the processing

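With only 2 clones per group and no read depth, none of the tests could pass its threshold under any setting. The share of called regions at the 52 genes was lower at 2 h under all 13 alternatives in each protein, but the MED24 difference of -0.0221 percentage points shrank to -0.00279 inside gene spans and -0.0106 with 10000 peaks (exact permutation p = 1 in both), and the MED1 groups overlapped with 20000 peaks (exact permutation p = 0.667). The number of regions called was higher by 11 in MED1 and 9 in MED24 and turned to -4.5 and -1 with the 10000 highest ranked peaks per library and to -4 and -3 with 20000; leaving out single libraries gave 9 to 14 and 2 to 17.5. The MED1 net change of 8.25% was 1.54% and 1.92% with those peak numbers, and the MED24 one of 5.08% was 0% and 1.90%. It ran from -0.543% to 13.7% with single libraries left out, and that of MED24 from -1.54% to 11.98%, the lowest values without clone b at 0 h. With the clones as a replicate block, the MED1 net change was 5.67% and the MED24 one 4.57%, and no other value changed direction. The small difference in mean percentile of retained MED1 regions, -0.531, turned to 0.231 at −log10 q of at least 10, 0.238 within 20 kb, 0.623 inside gene spans and 0.206 when ranked by fold, with -2.36 to 0.921 when libraries were left out. That of MED24, -1.87, turned to 1.76 at −log10 q of at least 10, 3.82 with 20000 peaks and 0.245 inside gene spans. Net changes of the Kdm and Hdac genes were added after seeing the data. For Kdm genes the MED1 value of -1.27% turned to 4.17% with 10000 peaks, was -6.33% with the replicate block and ran from -14.1% to 6.85% without single libraries, and the MED24 value of -2.67% turned to 3.03% within 20 kb, 3.51% inside gene spans, was -19.0% with 10000 and -10.5% with 20000 peaks and ran from -10.8% to 4.11% without single libraries. The cause of these changes was not tested.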
